A study of Rattus norvegicus with 4 samples.

Results

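Genes of the glutathione, thioredoxin and antioxidant systems were examined in lumbar dorsal root ganglia (DRG), the clusters of sensory neuron cell bodies beside the spinal cord. The ganglia came from Wistar rats that were treated as neonates and sampled later. The members were the protein-coding genes whose symbols name a glutathione transferase, glutathione peroxidase, peroxiredoxin, thioredoxin or thioredoxin-like protein, superoxide dismutase, metallothionein, or a central enzyme or regulator of the same systems. Cytosolic transferases were taken from the alpha, kappa, mu, omega, theta and zeta classes only, so the pi class was left out. By this rule there were 77 members among 22293 protein-coding genes. Of these, 72 had at least 1 count and 67 passed the filter on low counts that left 14719 genes for testing. Bulk RNA was sequenced from 2 wild-type rats given vehicle (PBS) and from 2 wild-type rats given cisplatin, a platinum chemotherapy drug, at 0.3 mg/kg. The sources used here name no other agent or allele for either group. The labels place DRG collection 16 days after treatment, whereas the methods of the study place it about a week after the later of a pair of injections, so the interval is uncertain. Several ganglia were pooled in each library, and the sex of the animals was not given by library. Total counts were 23267950 and 21384801 in the vehicle libraries and 25282170 and 25618417 in the cisplatin libraries. All 12 markers of sensory neurons used to check the tissue had counts in the libraries.

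Reduced glutathione is a tripeptide thiol that cells use to neutralise peroxides and electrophiles. Glutathione peroxidases spend it on peroxides, glutathione transferases attach it to electrophiles, and glutathione reductase restores it with NADPH. The thioredoxin system works in parallel: thioredoxin, kept reduced by thioredoxin reductase, supplies electrons to peroxiredoxins and other proteins. The transcription factor NRF2, encoded by Nfe2l2, is held down by KEAP1 in resting cells and drives many of these genes through antioxidant response elements in their promoters. Metallothioneins are small cysteine-rich proteins that bind zinc, copper and other metals. Platinum drugs react readily with the thiols of both glutathione and metallothionein, and sensory neurons of the DRG accumulate platinum, since these ganglia lack a tight blood-nerve barrier.

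Most members tested lay slightly higher after cisplatin, but none passed the test across all genes. Members took 0.442% and 0.415% of all counts in the vehicle libraries and 0.519% and 0.484% in the cisplatin libraries, so both cisplatin libraries lay above both vehicle libraries. With edgeR's quasi-likelihood test (adjusted p under 0.05 and at least 1.5-fold change), 0 of the 67 members tested were called, beside 0.00679% of all genes tested (1 gene). The lowest Benjamini-Hochberg adjusted p of a member was 0.509. DESeq2, run as an alternative, called 1 member, Gpx2, beside 0.65% of its genes (99 of 15229). At an unadjusted edgeR p under 0.05 with the same fold threshold, 7 members were higher and 0 were lower after cisplatin, beside 2.8% of all genes tested that were higher and 5.32% that were lower. These 7 were Gstm1, Gstm7, Mgst3, Gpx1, Gpx2, Gpx3 and Txnl4a. The count was 4 without vehicle library 1, 4 without vehicle library 2, 2 without cisplatin library 1 and 12 without cisplatin library 2, of which 7 were higher and 5 lower. Counts scaled for library size (CPM) did not overlap between the groups for 27 members that were higher after cisplatin (40.3%) and 3 that were lower (4.48%), beside 20.6% and 21.2% of all genes tested. Such counts by role or list below are to be read beside these shares. The log2 fold change (cisplatin over vehicle) was positive in 51 of the 67 members, beside 49.1% of all genes tested, with a median of 0.20 against -0.01 for all genes. For 1 gene with 2 libraries in each group, the smallest p that exact permutation allows is 0.333 (two-sided).

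**Figure D1:**
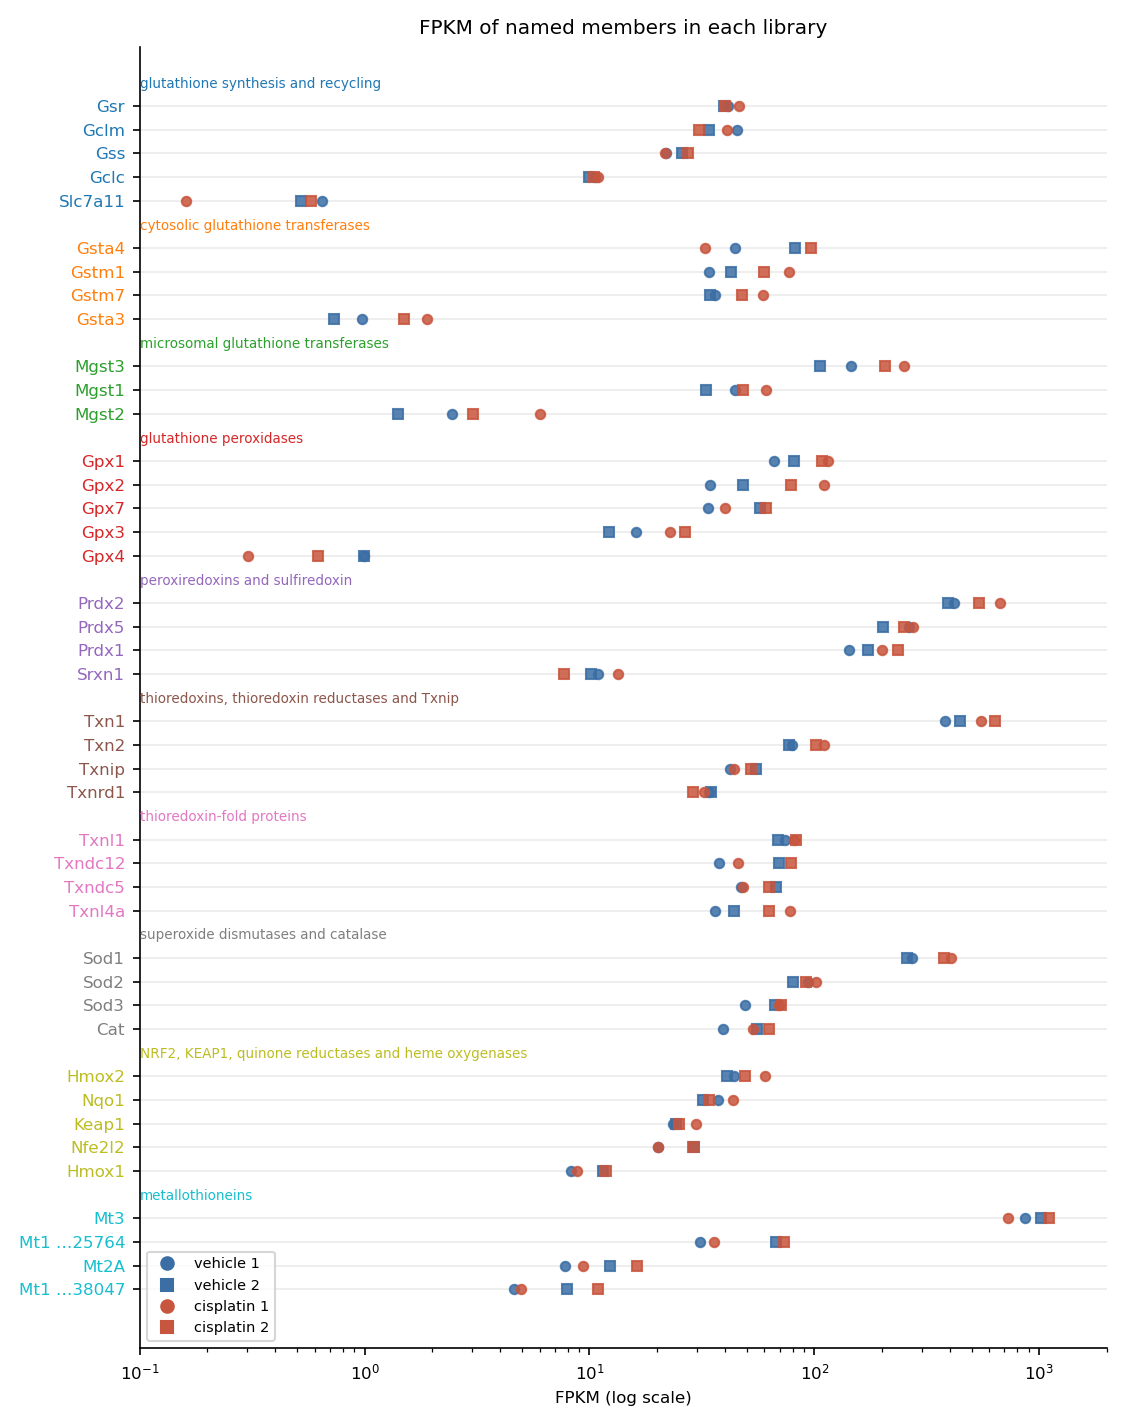
FPKM (fragments per kilobase of gene length, scaled for library depth, as deposited; log axis) of the members described by library in the text, grouped by role. Each point is 1 library, blue for vehicle and red for cisplatin. Mt3, Prdx2 and Txn1 were the most abundant. Gpx1, Gpx2, Gpx3, Gstm1, Mgst3, Txn1 and Sod1 had both red points above both blue points, whereas Gsta4, Mt1 and Txndc12 had the square points, library 2 of either group, on the right.

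Gene length has to be read beside these values. FPKM is a level per length, and a fold change is a difference between groups. The members were short, with a median length of 1375 bases against 2371 bases for all genes tested, and 57 of the 67 were shorter than that median. Short genes as a class lay higher after cisplatin. The median over the 1144 genes from 500 to 1000 bases was 0.26 on the log2 scale, and that over the 2032 genes from 4000 to 6000 bases was -0.20. The 13 members from 500 to 1000 bases had a median of 0.49 and the 21 from 1000 to 1500 bases had a median of 0.28, against 0.16 for all 1969 genes of the latter class. In the other classes under 3000 bases the members lay near all genes. The medians were 0.34 against 0.34 under 500 bases (6 members) and 0.078 against 0.095 from 1500 to 2000 bases (13 members). From 2000 to 3000 bases they were -0.013 against -0.0001 (9 members). The classes of longer genes differed more. The 4 members from 3000 to 4000 bases had 0.083 against -0.081, and the 1 member of 6000 bases and over had -0.68 against -0.32. After a length correction in each library, the median of the members fell to 0.09, against 0.01 for all genes, and 3 members (Gstm1, Gpx2 and Gpx3) stayed past the unadjusted rule. The corrected log2 fold change was positive in 43 of the 67 members. The part that length plays in the results by role was otherwise not tested, and length-corrected values stand beside the main ones below.

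**Figure D2:**
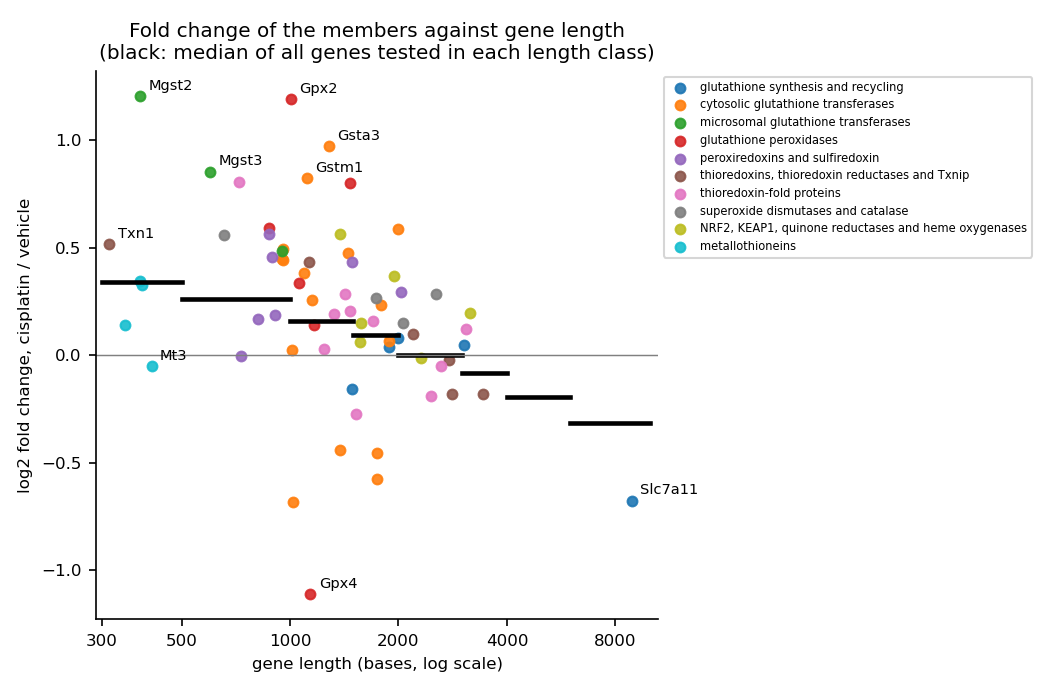
Fitted log2 fold change (cisplatin over vehicle) of each tested member against its gene length in bases (log axis), coloured by role. Black bars are medians of all genes tested in each length class, drawn from 0.34 for genes under 500 bases to -0.32 for genes of 6000 bases and over. Gpx2, Gsta3, Gstm1 and Mgst2 lay well above the bar of their class, and Gpx4 lay well below.

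The transcript of NRF2 did not separate the groups, and NRF2 protein was not measured. Nfe2l2 (NRF2) had FPKM of 20.1 and 29.2 in the vehicle libraries and 20.2 and 28.9 in the cisplatin libraries. Values of the same library number nearly coincided, but library 2 was the higher in either group, with a log2 fold change of -0.01 ± 0.28 (SE). Keap1, which encodes the adaptor that marks NRF2 for degradation, read 23.5 and 24.2 FPKM against 29.9 and 25.1 (log2 fold change 0.20 ± 0.18), so that its groups were apart by a narrow margin. Among 10 further regulators of NRF2, listed apart from the members, 2 were past the unadjusted rule and both were lower: Bach1 and Bach2, repressors that compete with NRF2 for the same DNA element. Bach1 had 192 and 186 counts in the vehicle libraries and 41 and 109 in the cisplatin libraries, so that the groups did not overlap (log2 fold change -1.46). Bach2 had 73 and 53 counts against 33 and 32 (log2 fold change -1.08). The adjusted edgeR p was 0.509 for both, and no regulator was called.

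Nqo1 and Hmox1, both known NRF2 targets, overlapped between the groups. Nqo1, a quinone reductase, had FPKM of 37.4 and 32.1 in vehicle and 43.6 and 33.9 in cisplatin libraries (log2 fold change 0.15 ± 0.21). Hmox1, the inducible heme oxygenase, had 8.30 and 11.4 FPKM against 8.82 and 11.9. The log2 fold change of Hmox1 was 0.06 ± 0.28. The constitutive heme oxygenase Hmox2 was higher in both cisplatin libraries, at 60.3 and 49.4 FPKM against 43.9 and 40.7 (log2 fold change 0.37 ± 0.19, edgeR adjusted p = 0.564). Nqo2, a related but much less abundant reductase, had 58 and 53 counts in vehicle and 89 and 92 in cisplatin libraries. Its groups did not overlap either, with a log2 fold change of 0.57 ± 0.32.

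Of 15 other NRF2 target genes, listed apart from the members, 13 were tested and 1 was past the unadjusted rule. Without overlap, 5 (38.5%) lay above and 1 (7.69%) below their vehicle values, beside 20.6% and 21.2% of all genes tested. The gene past the rule was Ephx1, a microsomal epoxide hydrolase, with 557 and 523 counts in vehicle against 931 and 903 in cisplatin libraries (log2 fold change 0.62, edgeR adjusted p = 0.509). The heavy ferritin chain gene Fth1 was listed at 0 in every library, so it gave no value. The list's median log2 fold change was 0.32, and 0.16 with the length correction. For the light ferritin chain, Ftl1, the log2 fold change was 0.03.

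Promoter sequences were searched for the antioxidant response element core, written TGACNNNGC, and for the core of the metal response element, written TGCACNC or TGCGCNC, on both strands. The windows (RefSeq, build GRCr8) ran from 250 bases before to 50 bases after each annotated start, and 64 of the 74 member symbols had one. The antioxidant core was present for 21 of those 64 symbols (32.8%), beside 13.1% of all 27457 genes with a window. The stretches shown carry it in members of different roles, with the match in capitals (in either orientation), along the strand of the gene:
Gpx2 (chr6:101230034-101230113, minus strand): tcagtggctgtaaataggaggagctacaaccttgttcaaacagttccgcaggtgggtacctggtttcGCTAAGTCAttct
Gsta3 (chr9:31154909-31154988, plus strand): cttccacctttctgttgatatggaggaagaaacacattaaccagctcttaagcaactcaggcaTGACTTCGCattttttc
Gstm7 (chr2:198260320-198260399, minus strand): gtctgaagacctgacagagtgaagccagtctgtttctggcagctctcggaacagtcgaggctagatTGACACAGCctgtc
Prdx1 (chr5:135383735-135383814, plus strand): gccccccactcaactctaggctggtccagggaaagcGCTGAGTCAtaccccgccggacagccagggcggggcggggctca
Txnrd1 (chr7:22755939-22756018, minus strand): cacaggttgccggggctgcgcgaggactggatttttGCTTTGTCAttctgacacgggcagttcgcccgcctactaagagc
Gclm (chr2:213031927-213032006, plus strand): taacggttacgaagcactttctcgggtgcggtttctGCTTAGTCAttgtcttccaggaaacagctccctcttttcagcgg

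The genes shown were picked from the 21 symbols with the core to include values of either sign, and differences between them were not tested. Gpx2, Gsta3, Gstm7 and Prdx1 lay higher in both cisplatin libraries, whereas Txnrd1 lay lower in both and Gclm overlapped between the groups. Tested genes were matched to windows by symbol, so both Mt1 genes were counted with the core through the window on chromosome 19. Over the tested members, those with the core had a median of 0.19 on the log2 scale (17 of 21 positive). Those without it had a median of 0.20 (27 of 37 positive). Over all genes tested the medians were -0.02 with the core (1636 genes) and -0.01 without it (8959 genes). A match in the window is a description of the letters only.

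**Figure D3:**
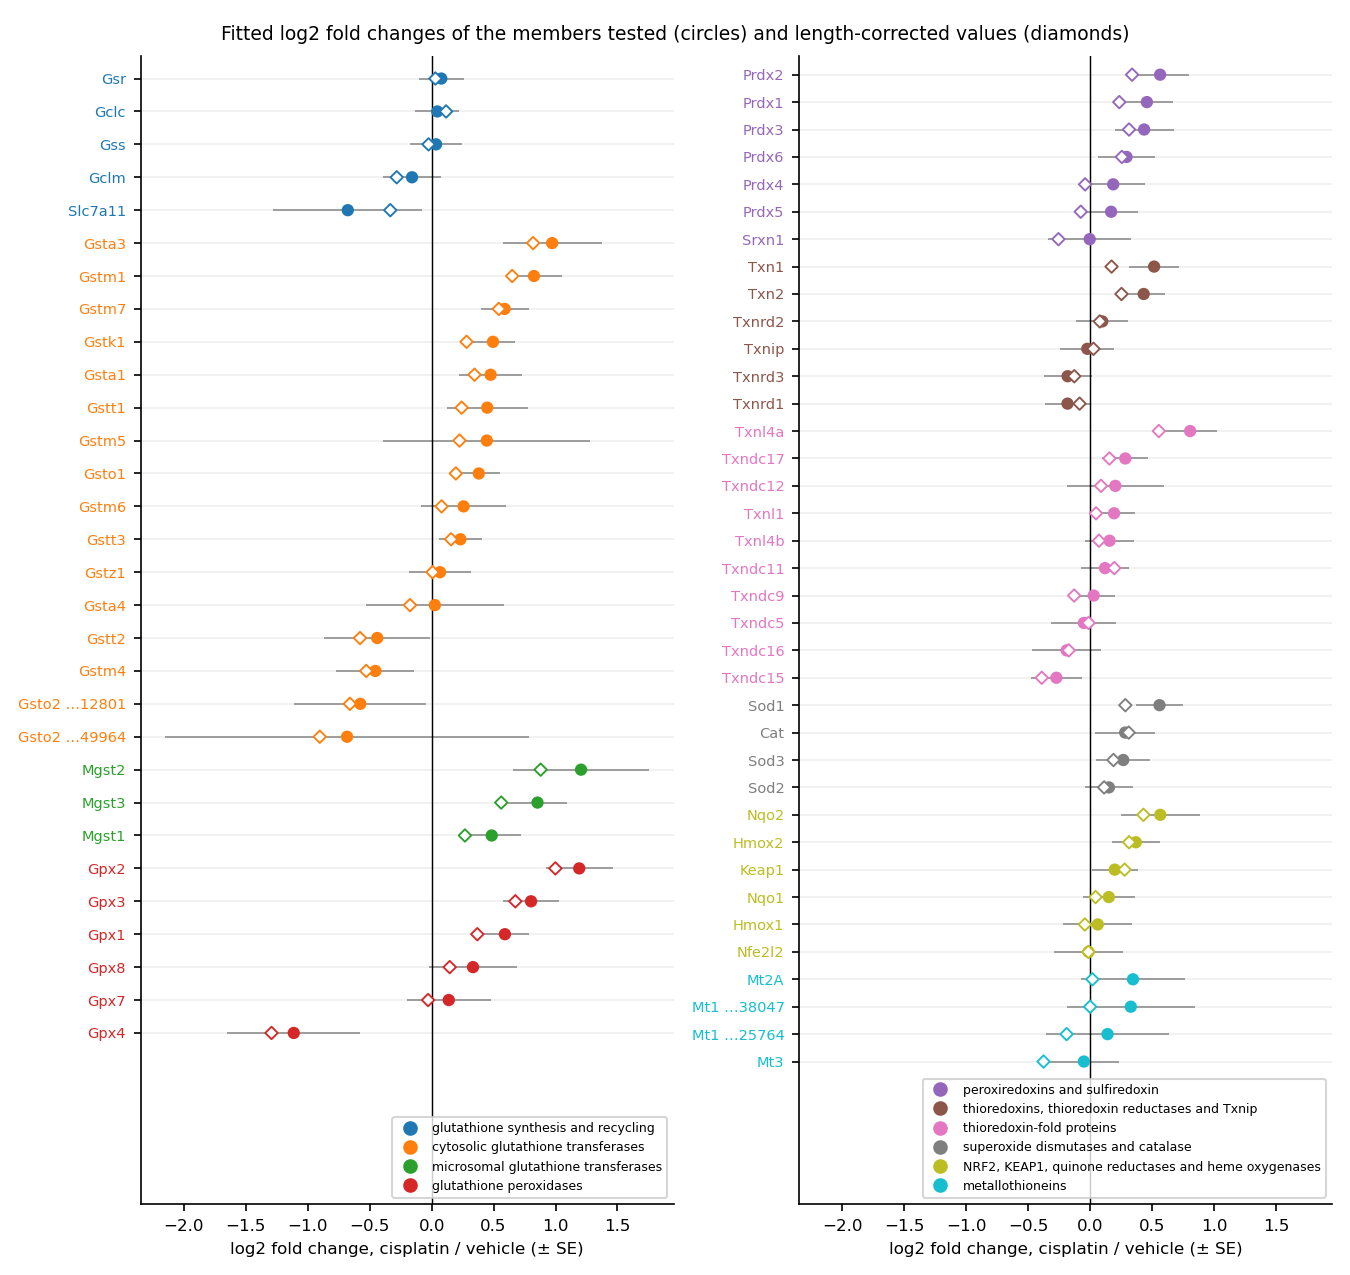
Fitted log2 fold change (cisplatin over vehicle) of the 67 members tested, ordered within each role, with circles for the main values, bars for ± 1 SE and open diamonds for the length-corrected values. Transferases and peroxidases spread from Gpx2 at 1.19 and Mgst2 at 1.21 to Gpx4 at -1.11. Gclc, Gss, Gsr and Nfe2l2 sat near 0, and Slc7a11 lay at -0.68.

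Genes that make and recycle glutathione showed no separation between the groups. All 5 members of this role overlapped, and their median log2 fold change was 0.04. Gclc, the catalytic subunit of glutamate-cysteine ligase, the rate-limiting enzyme of glutathione synthesis, read 10.6 and 9.96 FPKM in vehicle and 10.9 and 10.5 FPKM in cisplatin libraries. Gclm, its modifier subunit, had 45.2 and 34.2 against 40.7 and 30.6. Their log2 fold changes were 0.05 ± 0.18 and -0.16 ± 0.24. Gss, glutathione synthetase, had 21.9 and 25.9 FPKM against 21.7 and 27.5, and Gsr, glutathione reductase, had 41.4 and 39.8 against 46.2 and 39.9. The cisplatin values of Gss lay on either side of its vehicle values and those of Gsr began within its vehicle range, with log2 fold changes of 0.04 ± 0.21 for Gss and 0.08 ± 0.18 for Gsr. Slc7a11, the cystine importer that feeds glutathione synthesis, was scarce, with 147 and 94 counts in vehicle and 37 and 123 in cisplatin libraries. Only cisplatin library 1 was low for Slc7a11, and its log2 fold change of -0.68 ± 0.60 became -0.02 without that library.

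Genes that surround the glutathione pool were taken from lists separate from the members. Of 22 genes in the table for glutathione breakdown, export and glutaredoxins, 19 were tested. Without overlap, 10 (52.6%) lay above and 1 (5.26%) below their vehicle values, beside 20.6% and 21.2% of all genes tested. Past the unadjusted rule were 2 (10.5%), both higher, beside 2.8% of all genes tested. The first was Glrx, the cytosolic glutaredoxin that removes glutathione from protein thiols, with 1432 and 1272 counts in vehicle and 3143 and 2138 in cisplatin libraries (log2 fold change 0.82). The second was Esd, which hydrolyses S-formylglutathione, with 838 and 731 counts against 1215 and 1477 (log2 fold change 0.65). The mitochondrial glutaredoxin Glrx2 and the iron-handling Glrx3 were also higher in both cisplatin libraries, with log2 fold changes of 0.56 and 0.52. With the length correction, Glrx, Esd, Glrx2 and Glrx3 had 0.67, 0.51, 0.25 and 0.38. All 4 had adjusted edgeR p-values of 0.509 or 0.515. Of the 7 genes for NADPH supply in the table, 0 were past the unadjusted rule and the median log2 fold change was 0.05. Idh1 and Pgls lay above their vehicle values (28.6%, beside 20.6% of all genes tested).

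Among the 22 members that encode cytosolic glutathione transferases, 20 had counts and 16 were tested. Of these, 8 (50%) lay above their vehicle values without overlap, 0 lay below and 8 overlapped, beside 20.6% above and 21.2% below over all genes tested. Their summed FPKM was 255 and 315 in the vehicle libraries and 335 and 382 in the cisplatin libraries. The mu-class gene Gstm1 had 34.1 and 42.7 FPKM in vehicle and 76.8 and 59.9 FPKM in cisplatin libraries. Both cisplatin values were clear of both vehicle values, at 1.77-fold (log2 fold change 0.83 ± 0.23, edgeR adjusted p = 0.509, length-corrected 0.65). Gstm7 had 36.2 and 34.2 FPKM against 58.8 and 47.5, also without overlap (log2 fold change 0.59 ± 0.19, length-corrected 0.54). The mu-class genes did not move as a block. Gstm4 had 21.2 and 38.7 FPKM in vehicle and 21.9 and 22.1 in cisplatin libraries, and only vehicle library 2 stood apart.

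The mu-class genes lie together on chromosome 2 (Rnor_6.0), with Gstm1 at chr2:210803869-210809306 and Gstm7 at chr2:210720704-210782856, both on the minus strand. The annotated span of Gstm7 contains Gstm6, Gstm3 and a Gstm6l gene on the same strand, so the division of reads among these genes is uncertain. Gstm6 itself had 69, 42, 82 and 62 counts in the order vehicle 1, vehicle 2, cisplatin 1 and cisplatin 2. Gstm3 had 1, 1, 6 and 4 counts and was below the filter. Gstm5, at 10, 5, 5 and 17 counts, was too scarce to place.

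The alpha class included the largest difference among the cytosolic transferases that were members and tested. Gsta3 had only 32 and 19 counts in vehicle and 63 and 46 in cisplatin libraries, with a log2 fold change of 0.97 ± 0.40 (edgeR adjusted p = 0.519, length-corrected 0.82). Gsta1 had 483 and 278 counts in vehicle and 521 and 612 in cisplatin libraries (log2 fold change 0.48 ± 0.26). The groups did not overlap for either gene on the CPM scale. Gsta3 lies inside the span of Gsta1 on the opposite strand, and since the strand setting of the counting was not given, their reads may not be separable. Gsta4, which prefers the lipid peroxidation product 4-hydroxynonenal, was the most abundant alpha-class gene, at 44.3 and 81.9 FPKM in vehicle and 32.5 and 96.9 FPKM in cisplatin libraries. Library 2 was the higher in either group, and the log2 fold change was 0.03 ± 0.56. Its sign changed under library-size scaling, in the FPKM fits and with the length correction.

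Of the remaining cytosolic transferases, Gstk1, the mitochondrial and peroxisomal kappa enzyme, had 26.5 and 25.8 FPKM against 36.6 and 37.5. Its replicates were close and the groups clearly apart, with a log2 fold change of 0.50 ± 0.18, which falls short of 1.5-fold. The length-corrected value for Gstk1 was 0.28. Gsto1, an omega enzyme, was similarly tight, at 35.7 and 35.3 FPKM against 46.5 and 46.4 (log2 fold change 0.38 ± 0.17, length-corrected 0.20). In the table Gsto1 shares its span with a Gsto2 gene on the same strand, so reads of this pair are uncertain. Both Gsto2 genes were scarce, with at most 57 counts in a library, and overlapped between the groups. The theta genes Gstt1 and Gstt3 lay above their vehicle values and Gstt2 overlapped, with log2 fold changes of 0.45, 0.23 and -0.44. Gstz1, which isomerises maleylacetoacetate, had a log2 fold change of 0.07. Gsta2 and 1 of the 2 Gstm6l genes had no counts. Gsta5, the other Gstm6l gene and Gstt4 had between 0 and 6 counts in each library.

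All 3 microsomal transferases, membrane proteins of the same detoxifying and eicosanoid-forming family, lay above their vehicle values in both cisplatin libraries. Their summed FPKM was 193 and 140 in vehicle and 318 and 256 in cisplatin libraries. Mgst3, the most abundant glutathione transferase among the members, had 146 and 106 FPKM in vehicle and 251 and 205 FPKM in cisplatin libraries. This was 1.81-fold, with a log2 fold change of 0.85 ± 0.24 (edgeR adjusted p = 0.509). The length-corrected value for this gene of 600 bases was 0.56. Adding the counts of a processed pseudogene of Mgst3 gave 90.2 and 66.1 CPM against 156 and 128 CPM. Mgst1 had 44.4 and 33.1 FPKM against 61.0 and 47.9, and its nearest values in the groups were close (log2 fold change 0.49 ± 0.23, length-corrected 0.27). Mgst2 had the largest fitted log2 fold change of all members, 1.21 ± 0.55, but rested on 24 and 11 counts in vehicle and 60 and 28 in cisplatin libraries. Its vehicle library 1 and cisplatin library 2 were nearly equal in counts. With the length correction the log2 fold change of Mgst2 was 0.88, under the 0.999 of Gpx2.

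Of the glutathione peroxidases, 3 were past the unadjusted rule. Gpx2, a selenium-dependent enzyme best known from the epithelium of the gut, had 34.4 and 48.2 FPKM in the vehicle libraries and 110.5 and 79.1 FPKM in the cisplatin libraries. Both cisplatin values stood above both vehicle values, and the fitted difference was 2.28-fold (log2 fold change 1.19 ± 0.27). The adjusted p was 0.509 in edgeR and 0.040 in DESeq2. With the length correction the log2 fold change was 0.999, and it ranged from 0.94 without cisplatin library 1 to 1.46 without vehicle library 2. The gene lies at chr6:99839960-99843245 on the minus strand (Rnor_6.0), and its promoter stretch with the antioxidant core is printed above.

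Gpx1, the ubiquitous cytosolic peroxidase, had 66.3 and 81.2 FPKM in vehicle and 115 and 108 in cisplatin libraries. Gpx3, the secreted peroxidase of plasma and extracellular fluid, had 16.1 and 12.2 FPKM against 22.9 and 26.7. The groups were separate in both genes, with log2 fold changes of 0.59 ± 0.19 for Gpx1 and 0.80 ± 0.22 for Gpx3 (edgeR adjusted p = 0.509 for both). With the length correction these became 0.37 and 0.68. Gpx7 and Gpx8, peroxidases of the endoplasmic reticulum, overlapped between the groups, and library 2 was the higher in either group. Gpx7 had 33.6 and 57.6 FPKM against 40.0 and 61.0, and Gpx8 had 23.5 and 38.2 against 29.1 and 49.0. Gpx5 and Gpx6 had no counts.

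Gpx4, the phospholipid hydroperoxide glutathione peroxidase that guards against ferroptosis, was the only peroxidase lower in both cisplatin libraries, with 29 and 23 counts in vehicle and 9 and 17 in cisplatin libraries. The log2 fold change was -1.11 ± 0.54 (edgeR adjusted p = 0.546). It stayed under 1 FPKM in every library. This level is uncertain, since 2298 bases of its span are shared with Sbno2, a gene on the opposite strand with a mean of 1023 counts, and the strand setting of the counting was not given.

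Among other selenoproteins and their synthesis and repair partners, listed apart from the members, all 16 in the table were tested. Without overlap, 4 lay above and 4 below their vehicle values (25% each), near the 20.6% and 21.2% of all genes tested. Past the unadjusted rule were Msrb1, a selenium-dependent methionine sulfoxide reductase, with a log2 fold change of 0.61 (length-corrected 0.39), and Sepn1, a selenoprotein of the endoplasmic reticulum, with -0.86 (length-corrected -0.99). Both had an adjusted edgeR p of 0.509. The list's median log2 fold change was -0.02, so the differences of Gpx1, Gpx2 and Gpx3 stood beside selenoprotein genes that lay on either side of their vehicle level.

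Peroxiredoxins, the abundant thiol peroxidases recharged by thioredoxin, had a summed FPKM (with sulfiredoxin) of 972 and 921 in vehicle and 1331 and 1208 in cisplatin libraries. Of the 7 members of this role, 3 lay above their vehicle values (42.9%, beside 20.6% of all genes tested), 4 overlapped and 0 were past the unadjusted rule. Prdx2, the most abundant, had 419 and 393 FPKM in vehicle and 668 and 538 in cisplatin libraries. The separation was clear, with a log2 fold change of 0.56 ± 0.24 that became 0.34 with the length correction. Prdx1 had 143 and 173 FPKM against 201 and 235 (log2 fold change 0.46 ± 0.21, length-corrected 0.24). A separate gene with the same protein annotation as Prdx1 had 517 and 480 counts against 580 and 756, and summing both gave 150 and 183 CPM against 205 and 245 CPM. The groups stayed apart in the sum. Prdx3, the mitochondrial peroxiredoxin, had 59.2 and 50.4 FPKM against 87.6 and 61.2, with cisplatin library 2 close to vehicle library 1.

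Prdx5, which is found in mitochondria and peroxisomes, had 263 and 203 FPKM in vehicle and 274 and 251 in cisplatin libraries. It overlapped, and its log2 fold change of 0.17 ± 0.21 became -0.08 with the length correction. Prdx4 and Prdx6 overlapped as well, with log2 fold changes of 0.19 and 0.29. Srxn1, sulfiredoxin, which repairs overoxidised peroxiredoxins and is a common marker of NRF2 activity, had 10.9 and 10.2 FPKM in vehicle and 13.4 and 7.74 in cisplatin libraries. The cisplatin values lay on either side of the vehicle values and the log2 fold change was -0.003 ± 0.34.

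In the thioredoxin system, the thioredoxins lay higher after cisplatin and the reductases did not. Txn1, the cytosolic thioredoxin, had 381 and 446 FPKM in vehicle and 550.5 and 638 in cisplatin libraries. The groups did not overlap, with a log2 fold change of 0.52 ± 0.20 (edgeR adjusted p = 0.516), short of 1.5-fold. Txn1 was the shortest member tested, at 315 bases, and its length-corrected value was 0.17. Txn2, the mitochondrial thioredoxin, had 79.6 and 76.8 FPKM against 110 and 102, a tight separation with a log2 fold change of 0.43 ± 0.17 (length-corrected 0.25). Txnrd1, the cytosolic thioredoxin reductase, read 34.2 and 34.9 FPKM in vehicle and 32.4 and 28.7 in cisplatin libraries, lower in both by a small margin (log2 fold change -0.18 ± 0.18). Txnrd3 was also slightly lower in both, at 11.6 and 11.4 FPKM against 11.8 and 14.2, and the mitochondrial Txnrd2 overlapped. Txnip, which binds and inhibits thioredoxin, had 42.3 and 54.7 FPKM against 44.0 and 52.0, within the vehicle range in both cisplatin libraries.

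Thioredoxin-fold proteins, which share the fold but mostly serve in protein folding, splicing or other tasks, were mixed. Of the 12, 10 were tested, 3 lay above their vehicle values (30%, beside 20.6% of all genes tested) and 7 overlapped. Txnl4a, a component of the spliceosome, was the one past the unadjusted rule, at 36.1 and 44.0 FPKM in vehicle and 78.0 and 62.8 in cisplatin libraries. The groups were well apart, at 1.75-fold (log2 fold change 0.81 ± 0.22, edgeR adjusted p = 0.509, length-corrected 0.55). Its span overlaps another gene on the same strand, RGD1560212, by 6391 bases, so its count is uncertain. Txnl1 had 74.2 and 69.0 FPKM against 81.5 and 82.9 (log2 fold change 0.19 ± 0.17). Txndc5 and Txndc12, both of the endoplasmic reticulum, overlapped, and Txndc12 was at 37.7 and 69.8 FPKM in vehicle and 46.0 and 78.5 in cisplatin libraries, again with library 2 the higher in either group. Txndc2 had no counts, and Txndc8 had 1 count in a single library. Without this role, 0 of the 57 members left were called and 6 were past the unadjusted rule, with a median log2 fold change of 0.26.

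Superoxide dismutases turn superoxide into hydrogen peroxide, and catalase removes the peroxide. Sod1, the cytosolic copper-zinc enzyme, had 271 and 258 FPKM in vehicle and 406 and 378 in cisplatin libraries. Replicates lay close together and the groups far apart, with a log2 fold change of 0.56 ± 0.19 (edgeR adjusted p = 0.509), just under 1.5-fold. The length-corrected value was 0.28. The mitochondrial Sod2 overlapped, at 93.4 and 80.3 FPKM against 102 and 91.6. Extracellular Sod3 had 49.2 and 66.9 FPKM against 69.4 and 71.1, with vehicle library 2 near both cisplatin values. Cat had 39.3 and 55.6 FPKM against 53.1 and 63.0. The log2 fold changes of Sod2, Sod3 and Cat were 0.15, 0.27 and 0.28, each smaller than that of Sod1, though the difference from Sod1 was not tested.

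Metallothioneins overlapped in every case. Mt3, the brain-type metallothionein, was the most abundant member of all, with 861 and 1019 FPKM in vehicle and 726 and 1099 FPKM in cisplatin libraries. The cisplatin libraries held both its lowest and its highest value, and the log2 fold change was -0.05 ± 0.28 (length-corrected -0.38). Mt1 on chromosome 19 had 30.9 and 67.8 FPKM in vehicle and 35.9 and 73.5 FPKM in cisplatin libraries, and Mt2A had 7.79 and 12.4 against 9.37 and 16.3. Library 2 exceeded library 1 in either group by more than the groups differed, with log2 fold changes of 0.14 ± 0.49 for Mt1 and 0.35 ± 0.42 for Mt2A. A second gene named Mt1, on chromosome 17, followed the same order, at 4.63 and 7.98 FPKM against 4.95 and 10.9. Reads of these genes of the same name may have been split between them.

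Mt1, Mt2A and Mt3 on chromosome 19 carried the metal response element core before their start, and their promoters are printed to show how many copies each holds (RefSeq, build GRCr8, core in capitals in either orientation, along the strand of the gene):
Mt1 (chr19:10833014-10833161, minus strand): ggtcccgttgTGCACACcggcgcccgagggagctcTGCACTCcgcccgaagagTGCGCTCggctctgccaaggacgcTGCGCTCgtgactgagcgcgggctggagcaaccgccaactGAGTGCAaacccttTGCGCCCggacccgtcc
Mt2A (chr19:10838747-10838938, minus strand): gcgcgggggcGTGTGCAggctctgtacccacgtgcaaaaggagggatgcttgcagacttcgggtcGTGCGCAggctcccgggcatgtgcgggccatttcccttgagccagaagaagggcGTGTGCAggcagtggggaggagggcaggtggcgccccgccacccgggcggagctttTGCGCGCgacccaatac
Mt3 (chr19:10856115-10856200, minus strand): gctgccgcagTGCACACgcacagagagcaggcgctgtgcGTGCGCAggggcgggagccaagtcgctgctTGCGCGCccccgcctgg

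The core occurred 6 times in the Mt1 stretch, 4 times in that of Mt2A and 3 times in that of Mt3. Over all members with a window it was present for 19 of 64 symbols (29.7%), beside 26.3% of all 27457 genes with a window, tested or not. Tested genes were matched to windows by symbol, so both Mt1 genes and both Gsto2 genes were counted as holding the core. Among genes tested, 3974 held the core and 6621 did not, and among members tested 18 held it and 40 did not. On that background the members held it no more often than other genes. Tested members with the core had a median of 0.16 on the log2 scale and those without it 0.25. The metallothionein genes with several copies of the core were thus not separated between vehicle and cisplatin libraries.

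**Figure D4:**
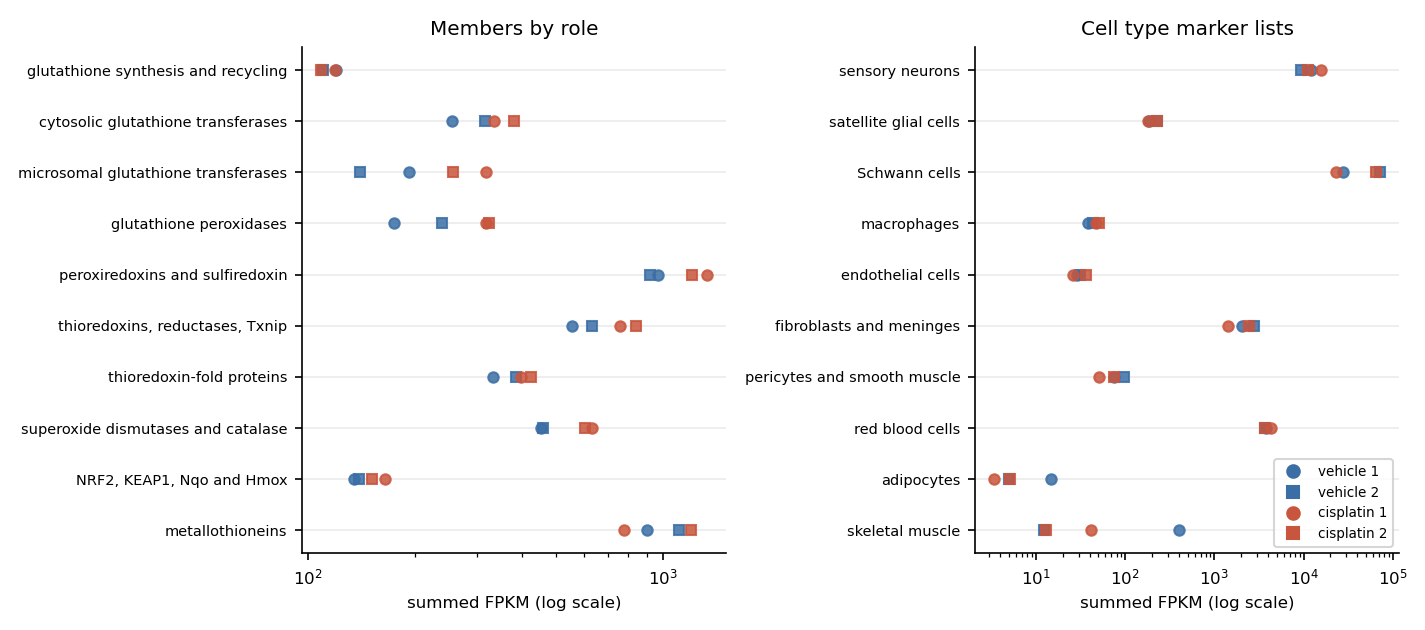
Summed FPKM (log axis) of the members of each role (left) and of cell type marker lists (right) in each library, blue for vehicle and red for cisplatin. Both cisplatin points lay above both vehicle points for both transferase classes, peroxidases, peroxiredoxins, thioredoxins, thioredoxin-fold proteins, superoxide dismutases with catalase and the NRF2 group, whereas Schwann cell and skeletal muscle markers separated libraries within a group. Summed FPKM gives short genes more weight. In summed CPM the thioredoxin-fold proteins overlapped, at 529 and 639 in vehicle against 600 and 670 in cisplatin libraries.

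Bulk libraries mix cell types, so fewer cells of a type and less RNA per cell cannot be told apart. All 12 sensory neuron markers had positive log2 fold changes (median 0.36), 4 of them without overlap, with summed FPKM of 11986 and 9266 in vehicle and 15756 and 11143 in cisplatin libraries. All 8 Schwann cell markers had negative ones (median -0.49), and their sum was 27924 and 71814 in vehicle against 22863 and 64735 in cisplatin libraries, so library 2 was the higher in either group, as it was for Mt1, Gsta4, Gpx7, Gpx8 and Txndc12. All 5 pericyte and smooth muscle markers also had negative log2 fold changes (median -0.34), with sums of 75.2 and 98.3 FPKM in vehicle against 50.9 and 75.8 in cisplatin libraries. Fibroblast and meningeal markers were split, with 5 of 10 positive, from -1.59 for Col1a2 to 2.07 for Ptgds, and their sums overlapped at 2018 and 2754 FPKM against 1435 and 2465. Of the satellite glial markers 2 of 6 were positive (median -0.17), and of the endothelial markers 2 of 5 (median -0.23). The summed FPKM of satellite glial markers was 186 and 229 against 180 and 227, and that of endothelial markers was 28.8 and 31.3 against 26.1 and 36.3. Macrophage markers, whose 12 genes were split into 4 above, 4 below and 4 overlapping, summed to 38.7 and 43.2 FPKM against 47.2 and 51.2. In summed CPM they overlapped, at 76.3 and 88.5 against 84.7 and 93.0. The shares above and below were 33.3% each, beside 20.6% and 21.2% of all genes tested. Red blood cell markers, relevant because red cells are rich in Prdx2, Cat and Gpx1, summed to 3788 and 3659 against 4351 and 3684, and 0 of 6 were separated between the groups. Skeletal muscle markers summed to 399 FPKM in vehicle library 1 against 12.3 to 41.1 in the others, and adipocyte markers to 14.9 against 3.40 to 5.14. The share of counts from the mitochondrial chromosome was 1.46% and 2.52% in vehicle and 5.38% and 4.68% in cisplatin libraries. The part of these differences in the members' values was not tested.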

How the data were processed

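Gene counts and FPKM were deposited as tables with 1 column per library. According to the study's methods, the authors mapped adaptor-trimmed paired-end reads with HISAT2 2.0.5 to Rnor_6.0 and used StringTie 1.3.3b, and the submitters' processing notes also list featureCounts 1.5.0-p3. Which tool made the counts, and with which strand setting, is not given in the sources used here. The deposited FPKM equal the counts divided by gene length and by 1 constant per library.

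Counts of protein-coding genes were tested with edgeR 4.0.16 in R 4.3.3 (TMM, filterByExpr, quasi-likelihood F test, no block, Benjamini-Hochberg adjustment over 14719 genes). Calls required both an adjusted p under 0.05 and at least 1.5-fold change. DESeq2 1.42.0, limma 3.58.1 on log2(FPKM + 1) and log2(FPKM + 0.1), and other filters and scalings were alternatives. So were a per-library lowess length correction, a replicate block and leaving out each library. Some of these fits were also tried on simulated data. The simulation had less spread between libraries than the main fit found, and larger changes than the tested members showed. With 2 libraries a group, each of pooled ganglia, p-values measure only the spread between these libraries.

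Genes named by library were those past the unadjusted rule or called by DESeq2, central enzymes and regulators, the 3 most abundant of each role and the 6 largest changes, with a few more picked after their values were seen. The members, roles and lists were chosen with earlier results of these data known. Promoters came from RefSeq (GRCr8), and no protein or genome sequence was used here.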

Additional observations from a re-analysis of the deposited data

How the results depend on the processing

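The median log2 fold change of the members stayed positive under every alternative run, from 0.09 with the length correction to 0.29 without vehicle library 2. No member was called by edgeR when the normalisation, the filter, the biotypes, the fold threshold or the length correction was changed, or when any 1 library was left out (range 0 to 0), whereas DESeq2 called 1. The length correction left 3 members past the unadjusted rule in place of 7, and leaving out 1 library gave 2 (without cisplatin library 1) to 12 (without cisplatin library 2). Over all protein-coding genes the call count of 1 became 2 with no filter, 2 with a minimum of 10 counts per library, 99 with DESeq2, 4 with limma on log2(FPKM + 1), 2 on log2(FPKM + 0.1), and 5 to 7 without 1 library. The replicate numbers carry no stated pairing. Libraries of the same number deviated together (r = 0.515 across genes, which are not independent), and a replicate block raised the count to 1665 genes and 6 members (Gstm1, Mgst3, Gpx1, Gpx2, Gpx3 and Txnl4a, beside 11.3% of all genes), or 1194 and 3 with the length correction added. The cause of these changes was not tested.

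Signs were compared across all settings for 42 members only, and those that turned all had overlapping groups in the main analysis. Where groups do not overlap, leaving out 1 library can hardly turn a sign, so those fits say little on this point. Other members turned as well, such as Prdx4 at -0.041 and Txndc9 at -0.13 with the length correction. By library-size scaling Gclc became -0.013, Gss -0.018 and Gsta4 -0.029 on the log2 scale. Gsta4 was -0.10 with limma on log2(FPKM + 1), filtered or not, with log2(FPKM + 0.1) and with the replicate block, and Srxn1 was 0.0013 with DESeq2 size factors and 0.0011 with DESeq2. With the length correction, and then with the replicate block added, the values were -0.025 and -0.030 for Gss, -0.17 and -0.30 for Gsta4, -0.028 and -0.013 for Gpx7, -0.076 and -0.062 for Prdx5, 0.027 and 0.033 for Txnip, -0.042 and -0.042 for Hmox1, -0.19 and -0.18 for Mt1 on chromosome 19 and -5.1e-05 and -0.032 for Mt1 on chromosome 17. Without 1 library, log2 fold changes that turned sign ranged over -0.37 to 0.059 for Gclm, -0.025 to 0.18 for Gsr, -0.14 to 0.20 for Gss, -0.97 to 0.62 for Gsta4, -0.20 to 0.59 for Gpx7, -0.45 to 0.34 for Srxn1, -0.19 to 0.18 for Txnip, -0.23 to 0.72 for Txndc12, -0.28 to 0.24 for Txndc5, -0.17 to 0.32 for Hmox1, -0.29 to 0.29 for Nfe2l2, -0.038 to 0.32 for Nqo1, -0.46 to 0.82 for Mt1 on chromosome 19, -0.35 to 0.80 for Mt1 on chromosome 17, -0.11 to 0.72 for Mt2A and -0.38 to 0.23 for Mt3. At these depths, members with few counts, such as Gpx4, Mgst2, Gsta3 and Slc7a11, carried wide standard errors.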
